A study of Mus musculus with 50 samples.

Results

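Transplanted and primary p53/MCA sarcomas were compared by RNA sequencing of whole tumors from mice that received anti-PD-1 antibody and no radiation. The comparison held 12 libraries of 50 in the series, 4 transplants and 8 primary tumors, and covered all 19327 genes that passed an expression filter. Primary tumors arose in 129/SvJae mice with floxed Trp53 alleles after an adenovirus carrying Cre recombinase and then the carcinogen 3-methylcholanthrene (MCA) had been injected into the gastrocnemius muscle. Transplants grew in the same muscle of syngeneic mice from a single cell line, derived from 1 primary p53/MCA sarcoma that had not been treated. The 4 transplants therefore shared 1 tumor of origin and 1 culture, while each primary tumor was its own event, so tumor model and tumor of origin cannot be told apart. All 12 mice received 0 Gy and the mouse anti-PD-1 antibody muDX400, and tumors were taken 3 days later. Deletion of Trp53 is common to both groups. The counts of Trp53 cover the whole gene and the host's cells too, so they do not check the deletion, and Trp53 itself, which lies at chr11:69580359-69591873, did not pass. Trp53 read 37.8, 26.3, 45.8 and 25.7 CPM (read counts relative to the scaled library size) in transplants 1 to 4, and primary tumors ran from 21 to 48.5 CPM with a median of 25.7.

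PD-1 is an inhibitory receptor on activated T cells, and antibodies against it release T cells that recognize tumor antigens. Such T cells and natural killer cells secrete interferon-γ, which induces the factor IRF1, guanylate-binding proteins and immunity-related GTPases, the chemokines that draw in further T cells, the proteasome and peptide transporter subunits of MHC class I presentation, and PD-L1. Sarcomas are tumors of mesenchymal cells, which carry positional (Hox), imprinted and developmental programs from the cell that gave rise to them.

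Total counts ran from 37747858 to 54008259 per library, so that 1 CPM was about 37.7 counts in the smallest library. Col1a1, a fibrillar collagen chain, lay between 1724 and 9948 CPM in all 12 libraries. Of 14 epithelial and keratinocyte genes, 11 passed the filter, Krt8, Krt14 and Krt18 among them, and Krt5, Krt15 and Cldn4 did not. These whole-tumor values therefore do not check the mesenchymal label. Some libraries stood apart. Transplant 3 was high in neutrophil granule and red blood cell genes, primary tumor 4 in neutrophil genes, and transplant 1 in skeletal muscle fiber genes. Xist, transcribed from the inactive X chromosome of females, was at 232, 167 and 103.2 CPM in primary tumors 3, 4 and 5, whose Y-linked Ddx3y was at most 0.181 CPM, and at most 0.624 CPM in the other 5 primary tumors. Transplant 2 held both, with Xist at 75.0 CPM and Ddx3y at 32.2 CPM, while the other 3 transplants had Xist at most at 0.421 CPM. The 2 single libraries of the transplanted line, labelled parental tumor and cell line, had Ddx3y at 90.1 and 124.9 CPM and Xist at 0.0447 and 0.217 CPM. The source of Xist in transplant 2 was not tested.

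Transplants and primary tumors differed in 1421 of the 19327 genes at adjusted p under 0.05 (edgeR's quasi-likelihood test with Benjamini-Hochberg adjustment, fitted on the 48 tumor libraries of 8 groups), which is 7.35% of genes tested. Of these, 656 genes (3.39%) were higher in transplants and 765 (3.96%) were lower, and 494 and 586 of them differed by at least 2-fold. The median size of the log2 fold change, without its sign, was 1.78 in the called genes and 0.30 in all genes tested. With its sign, the median of all genes tested was 0.01. All 4 transplants lay above all 8 primary tumors in 518 genes (2.68%) and below them in 638 (3.3%). The count of calls depended on single transplants: it was 627 without transplant 1, 654 without transplant 3 and between 1013 and 1516 without any other library. Below, gene groups are described by how many members passed this test in each direction and by the median log2 fold change over their members, to be read against these shares and against 0.01. The 15 genes with the largest changes in each direction were named by a rule that took only called genes without overlap between the groups. For those genes the lack of overlap is thus a condition of the choice and not a further result.

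**Figure D1:**
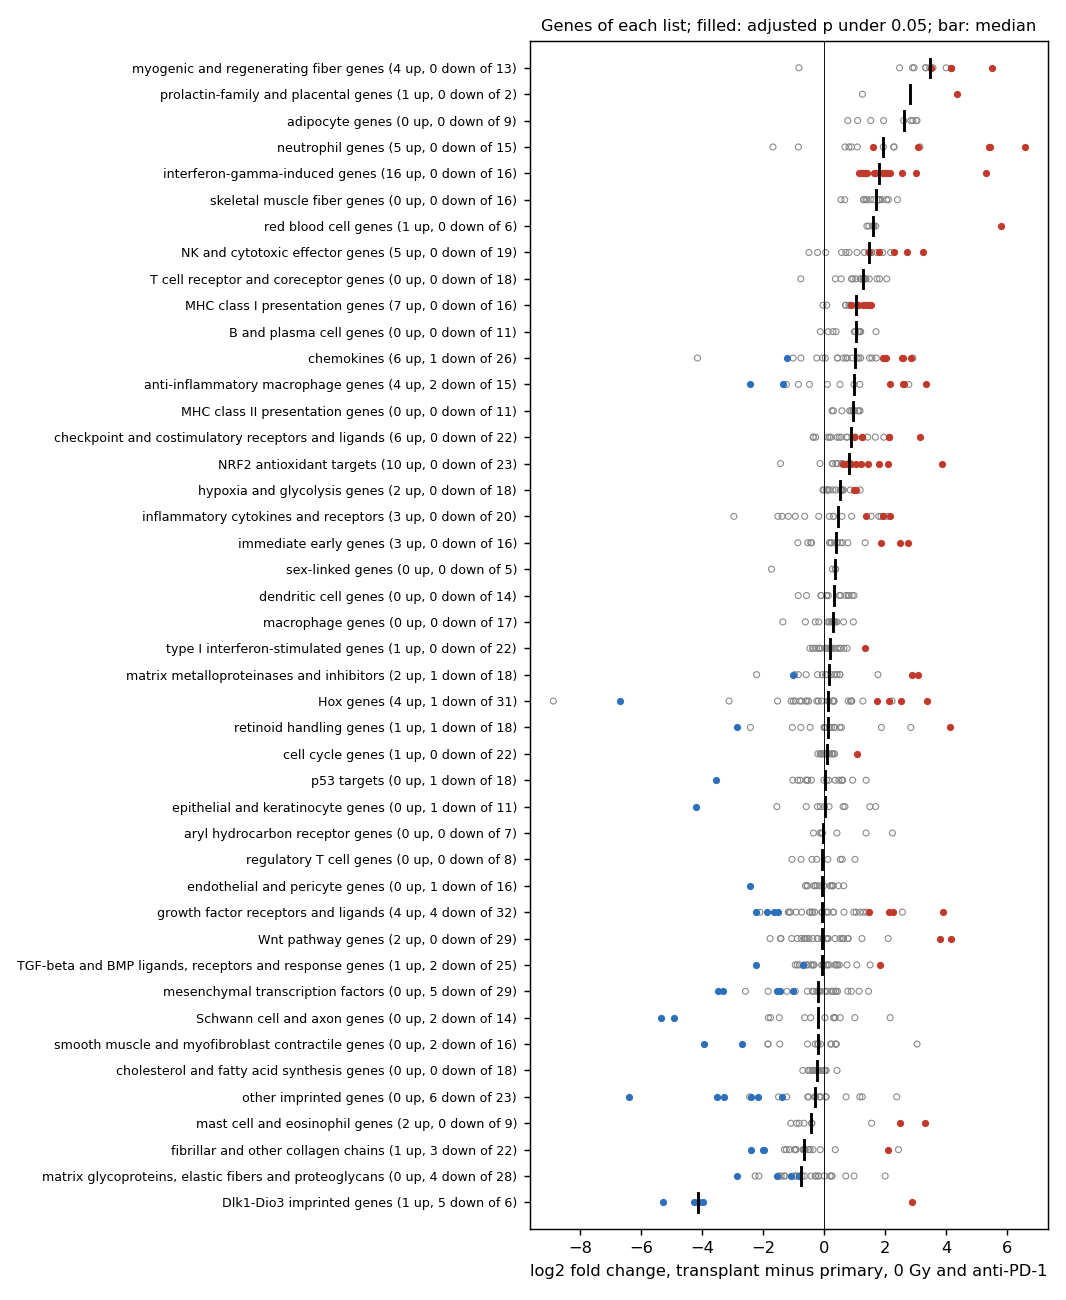
Log2 fold change (transplant minus primary, 0 Gy and anti-PD-1) of each tested gene in 44 gene lists, ordered by the list median (black bar). Filled points passed adjusted p under 0.05 (red higher in transplants, blue lower) and open points did not. All 16 interferon-γ-induced genes are red, while 1 of 22 type I interferon-stimulated genes is, and 5 of 6 genes of the Dlk1-Dio3 imprinted region are blue.

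Genes induced by interferon-γ were higher in transplants. All 16 listed genes passed, with log2 fold changes from 1.14 to 5.31 and a median of 1.80, and in all 16 the 4 transplants lay above every primary tumor. The mean log2 CPM of the list was 7.33, 6.94, 7.65 and 6.92 in transplants 1 to 4 and ran from 4.12 to 6.17 in primary tumors with a median of 4.96. Primary tumors 8 and 1 were the highest of their group, at 6.17 and 5.94. The number of genes called was 11 without transplant 1 and 6 without transplant 3, and between 13 and 16 when any other library was left out. It was also 6 when the 3 primary tumors with high Xist were left out, an alternative chosen after the data were seen, while the list median stayed between 1.56 and 1.96 over all alternatives. Reads of the Gbp genes, and of Tgtp1 and Tgtp2, can be shared between near-identical copies, so the split among them is uncertain.

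The interferon-γ signal itself was low but separate. Ifng, the gene of interferon-γ (chr10:118441046-118445892), read 3.49, 1.0, 3.85 and 2.66 CPM in transplants 1 to 4, against 0.0476 to 0.687 CPM in primary tumors with a median of 0.195. Its log2 fold change was 3.23 ± 0.80 (SE, adjusted p = 0.00891). Every transplant lay above every primary tumor, although no primary tumor had more than 32 Ifng counts. Irf1, the transcription factor that relays the signal (chr11:53770014-53778374), was at 346, 245, 407 and 304 CPM in transplants and between 107.995 and 188 CPM (median 123.1) in primary tumors. The groups did not overlap, and the log2 fold change was 1.28 ± 0.30 (SE, adjusted p = 0.00464). Gbp2, a guanylate-binding protein of cell-autonomous defense (chr3:142620602-142638008), was at 457, 328, 574 and 360.2 CPM in transplants and 58.6 to 232 CPM (median 113.3) in primary tumors. Its log2 fold change was 1.70 ± 0.38 (SE, adjusted p = 0.00373). Igtp, an immunity-related GTPase, was at 269, 186, 308 and 235 CPM in transplants and 26.9 to 125.5 CPM in primary tumors, with a log2 fold change of 1.90 ± 0.43 (SE, adjusted p = 0.00445). Among these 3 genes the lowest transplant was always transplant 2.

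Ido1, which encodes the tryptophan-degrading enzyme indoleamine 2,3-dioxygenase (chr8:24584136-24597009), had the largest fold of the list. It was at 12, 8.35, 11.8 and 7.07 CPM in transplants 1 to 4, and primary tumors spanned 0.0231 to 0.691 CPM around a median of 0.180. No primary tumor came near a transplant, and the log2 fold change was 5.31 ± 0.77 (SE, adjusted p = 1.97e-05), the second largest among the 15 positive genes named by the rule. Cxcl9, a ligand of CXCR3 on activated T cells (chr5:92321347-92328079), was at 859.9, 503, 1397 and 676 CPM in transplants and 33.4 to 374 CPM (median 89.4) in primary tumors. No primary tumor reached the lowest transplant, and the log2 fold change was 2.55 ± 0.63 (SE, adjusted p = 0.00893). Cxcl11, another CXCR3 ligand, differed by 2.57 ± 0.63 on the log2 scale (adjusted p = 0.00775).

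In the list of type I interferon-stimulated genes 1 of 22 passed, with a median log2 fold change of 0.19, and without transplant 3 none of the 22 passed. Ifi44, an interferon-induced gene of that list that did not pass, was at 115.3, 165, 175 and 78.4 CPM in transplants and 35.4 to 113.8 CPM in primary tumors, which overlap, with a log2 fold change of 0.75 (adjusted p = 0.319). The mean log2 CPM of the type I list lay between 5.26 and 6.12 in transplants, within the 4.30 to 6.27 of primary tumors.

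The upstream sequences of the interferon-γ-induced genes are shown because these genes moved together and because the classes of interferon act through different short elements. Interferon-γ acts through the gamma-activated sequence (GAS, searched as TTCNNNGAA), and complexes of IRF factors bind the interferon-stimulated response element (ISRE, searched as GAAA, any 2 bases, then GAAA). Both strands of RefSeq windows on GRCm38.p6, from 250 bases before to 50 bases after each start, were searched, and a match is only a match of letters. Windows were found for 12 of the 16 interferon-γ-induced genes, 14 windows in all, of which 7 (50%) held GAS and 10 (71.4%) held ISRE. For the type I list, 18 of 22 genes had 22 windows, with GAS in 4 (18.2%) and ISRE in 10 (45.5%). Across 32851 windows of all genes the shares were 8.3% and 3.44%. The 150 bases before the start are printed 5′ to 3′ on the gene's strand, with the matches in capitals.
Irf1 (chr11:53769864-53770013, plus strand): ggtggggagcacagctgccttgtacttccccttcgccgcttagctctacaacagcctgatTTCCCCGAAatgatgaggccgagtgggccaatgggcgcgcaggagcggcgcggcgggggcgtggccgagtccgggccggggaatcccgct
Gbp2 (chr3:142620513-142620662, plus strand): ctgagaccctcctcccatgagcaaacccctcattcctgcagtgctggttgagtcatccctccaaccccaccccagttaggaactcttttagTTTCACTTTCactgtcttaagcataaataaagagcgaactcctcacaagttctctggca
Igtp (chr11:58199406-58199555, plus strand): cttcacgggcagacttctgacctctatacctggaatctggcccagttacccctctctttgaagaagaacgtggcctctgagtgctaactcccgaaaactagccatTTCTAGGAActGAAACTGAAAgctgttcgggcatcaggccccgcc
Irgm2 (chr11:58214827-58214976, plus strand): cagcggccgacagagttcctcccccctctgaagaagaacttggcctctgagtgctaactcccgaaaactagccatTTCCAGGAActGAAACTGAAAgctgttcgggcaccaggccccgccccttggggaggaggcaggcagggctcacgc
The Irf1 window held GAS alone, with its first base 90 bases before the start, and the Gbp2 window held ISRE alone, read on the opposite strand, 59 bases before the start. In Igtp and Irgm2, both immunity-related GTPases, GAS was followed by ISRE 11 bases on, and the same spacing was found in Tgtp1 and Tgtp2. The GAS letters of Igtp began 45 bases and those of Irgm2 75 bases before the start. Irgm2 was at 153, 161, 215 and 143.7 CPM in transplants and 31.1 to 112.4 CPM in primary tumors, with a log2 fold change of 1.40 ± 0.38 (SE, adjusted p = 0.0162).

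Genes of cytotoxic lymphocytes were higher in part. Of 19 natural killer and cytotoxic effector genes 5 were higher (Gzmb, Gzmk, Nkg7, Ifng and Cst7) and none lower, with a median log2 fold change of 1.47. Gzmb, the protease granzyme B delivered into target cells (chr14:56258838-56262260), was at 144.1, 37, 133.5 and 73.4 CPM in transplants 1 to 4 and 5.92 to 30.9 CPM (median 14.1) in primary tumors. Every transplant was above every primary tumor, transplant 2 by the least, and the log2 fold change was 2.71 ± 0.63 (SE, adjusted p = 0.00490). The T cell receptor and coreceptor list had no gene past the threshold among 18, although 17 had positive values and the median was 1.28. Cd8a, the coreceptor of cytotoxic T cells, was at 37.4, 18, 54.1 and 26.7 CPM in transplants and 2.33 to 22.4 CPM (median 7.60) in primary tumors. Its lowest transplant fell below the highest primary tumor, and its log2 fold change of 2.05 ± 0.70 did not pass (adjusted p = 0.0605). Cd4, the coreceptor of helper T cells, had a value of 0.37 (adjusted p = 0.767), and Foxp3, the factor of regulatory T cells, -0.40 (adjusted p = 0.799). None of 8 regulatory T cell genes passed (median -0.06). In a fit on the 12 libraries alone 6 T cell genes and 10 cytotoxic genes passed, and with the 3 high-Xist primary tumors left out 1 cytotoxic gene did. The cytotoxic count was 2 without transplant 1, transplant 3, or primary tumor 2, 3, 6 or 8, 3 without transplant 4 or primary tumor 4, 5 or 7, and 8 without primary tumor 1.

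Checkpoint ligands and receptors followed the same direction, with 6 of 22 higher (Lag3, Havcr2, Cd160, Cd38, Cd274 and Pdcd1lg2), none lower and a median of 0.87. Cd274, which encodes PD-L1, the ligand of the receptor blocked in these mice (chr19:29367455-29388095), was at 79.4, 20.8, 82.1 and 44.9 CPM in transplants and 6.18 to 26.3 CPM (median 11.5) in primary tumors. Transplant 2 lay below the highest primary tumor, so the groups overlapped, and the log2 fold change was 2.14 ± 0.43 (SE, adjusted p = 0.00138). Pdcd1lg2, the gene of the second PD-1 ligand, PD-L2, was at 3.89, 0.947, 10.2 and 1.72 CPM in transplants and 0.166 to 0.867 CPM in primary tumors, with a log2 fold change of 3.14 ± 0.62 (SE, adjusted p = 0.00116). Pdcd1, the gene of PD-1 itself, was at 28.1, 13.6, 33.8 and 17.7 CPM in transplants and 2.29 to 12.3 CPM in primary tumors. Those groups did not overlap, yet the log2 fold change of 1.95 ± 0.65 missed the threshold (adjusted p = 0.0567). The checkpoint count was 2 without transplant 1, transplant 3 or primary tumor 6 and without the high-Xist primary tumors, 3 without primary tumor 2 or 7, and 9 in the fit on 12 libraries. In bulk tumors, fewer cells of a type and less RNA per cell cannot be told apart, for these genes and for all others here.

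Antigen presentation by MHC class I had 7 of 16 genes higher (H2-T23, Tap1, Tap2, Tapbp, Psmb8, Psmb9 and Psmb10), none lower and a median of 1.05. These 7 are subunits of the immunoproteasome, the peptide transporter, its partner tapasin and a nonclassical class I molecule. Psmb8, an immunoproteasome subunit, was at 481, 251, 419.7 and 314 CPM in transplants and 73 to 180.3 CPM (median 121.5) in primary tumors, without overlap, with a log2 fold change of 1.48 ± 0.33 (SE, adjusted p = 0.00368). Tap1, of the peptide transporter, was at 282, 225, 337 and 253 CPM against 63.6 to 181 CPM, with a log2 fold change of 1.26 ± 0.35 (SE, adjusted p = 0.0180). The classical heavy chain H2-K1 was at 2011, 2066, 2539.6 and 1654 CPM in transplants and 554 to 1870.2 CPM in primary tumors, and its value of 1.06 ± 0.38 did not pass (adjusted p = 0.0795). Reads of class I heavy chains can be shared between family members. The class I count was 3 without transplant 1, 2 without transplant 3 and 3 without the high-Xist primary tumors. None of 11 MHC class II genes passed (median 0.94). H2-Ab1, a class II chain of antigen-presenting cells, was at 2459.9, 1348, 2399 and 755 CPM in transplants and 359 to 1411 CPM in primary tumors, and its value was 1.10 (adjusted p = 0.312).

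**Figure D2:**
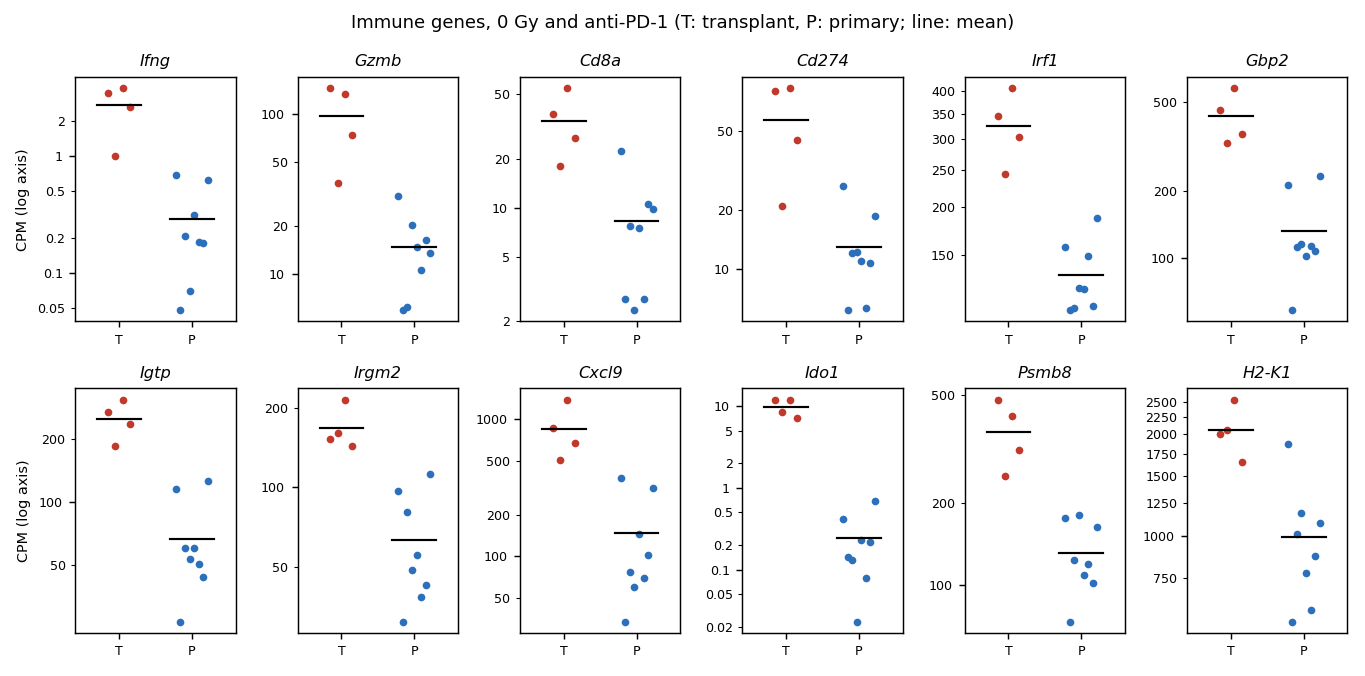
CPM (log axis) of 12 immune genes in each library under 0 Gy and anti-PD-1, with 4 transplants (T) in red, 8 primary tumors (P) in blue and the group mean as a line. Irf1, Gbp2, Igtp, Cxcl9 and Ido1 do not overlap between the groups, whereas Cd8a, Cd274 and H2-K1 do.

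None of 17 macrophage genes, 14 dendritic cell genes or 11 B and plasma cell genes passed, with medians of 0.29, 0.31 and 1.03, the last being 0.36 without transplant 1. C1qa, a complement subunit made by macrophages, was at 739, 557, 762 and 327 CPM in transplants and 333 to 685 CPM in primary tumors. Within the list of anti-inflammatory macrophage genes, 4 of 15 were higher (Arg1, Chil3, Ptgs2 and Il1rn) and 2 lower (Lyve1 and Stab1), against 2 and 1 without transplant 3, and 1 lower without transplant 2 or 4. Ptgs2, the inducible cyclooxygenase, was at 408, 68.1, 159 and 562 CPM in transplants and 15.9 to 151 CPM (median 30.5) in primary tumors. Transplant 2 overlapped the primary tumors, and the log2 fold change was 2.61 ± 0.60 (SE, adjusted p = 0.00483). Il1rn, the secreted antagonist of the interleukin-1 receptor, differed by 2.16 ± 0.37 (SE, adjusted p = 0.000205) on the log2 scale. Stab1, a scavenger receptor of tissue macrophages and sinusoidal endothelium, was lower, at 138.3, 121.8, 138.4 and 115.98 CPM in transplants and 153 to 521 CPM in primary tumors, with a log2 fold change of -1.35 ± 0.32 (SE, adjusted p = 0.00610).

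Chemokines had 6 of 26 genes higher (Cxcl9, Cxcl11, Ccl3, Ccl4, Ccl6 and Ccl24) and 1 lower, with a median of 0.99. The lower one, Cxcl12, a stromal ligand of CXCR4, was at 214, 219, 324 and 247 CPM in transplants and 371 to 877 CPM in primary tumors, with a log2 fold change of -1.21 ± 0.36 (SE, adjusted p = 0.0282). Cxcl12 was not called without transplant 1, 2 or 4 or primary tumor 1. No chemokine was called higher without transplant 3, 4 were without transplant 1, and 2 were without the high-Xist primary tumors. Of 20 inflammatory cytokines and receptors 3 were higher (Il1rn, Lif and Tnf), 1 without transplant 1 and 6 without primary tumor 4. Neutrophil genes had 5 of 15 higher (median 1.94), of which Ngp, Ltf and Camp are granule proteins of immature neutrophils and rested on 1 library. Ngp was at 2.79, 0.340, 164 and 3.58 CPM in transplants 1 to 4 against at most 1.36 CPM in primary tumors, and Slc4a1, a red blood cell membrane protein, had the same shape at 0.541, 0.0357, 71.4 and 0.888 CPM. Without transplant 3 no neutrophil gene was called and the median was 0.98, and without primary tumor 4, the highest of its group, 11 of 15 were, with a median of 3.77.

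A second group higher in transplants was that of NRF2 targets. NRF2 is the transcription factor that switches on glutathione and thioredoxin enzymes and NADPH supply under oxidative or electrophilic stress, and KEAP1 holds it in check. Of 23 tested genes 10 were higher and none lower, with a median of 0.80, and 13 had all transplants above all primary tumors. The mean log2 CPM of the list lay at 6.73 to 7.03 in transplants and 5.85 to 6.19 in primary tumors, a narrow spread within each group. Between 6 and 12 genes were called over the alternatives, fewest without transplant 4.

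Nqo1, the quinone reductase most often read as a marker of NRF2 (chr8:107388225-107403206), was at 181, 142.9, 128.3 and 154 CPM in transplants 1 to 4 and 5.0 to 22.4 CPM (median 9.38) in primary tumors. The lowest transplant was several times the highest primary tumor, and the log2 fold change was 3.87 ± 0.58 (SE, adjusted p = 2.37e-05). Txnrd1, thioredoxin reductase, was at 369, 356, 355 and 496 CPM in transplants and 142.97 to 209.5 CPM (median 156) in primary tumors, with a log2 fold change of 1.22 ± 0.23 (SE, adjusted p = 0.000743). Gclc, the catalytic subunit of the first step of glutathione synthesis, was at 73.6, 95.2, 80.7 and 109.4 CPM against 25.2 to 40.7 CPM, with a log2 fold change of 1.44 ± 0.32 (SE, adjusted p = 0.00299). Neither gene overlapped between the groups. G6pdx, the entry enzyme of the pentose phosphate pathway, was at 106.8, 131.8, 121.4 and 124.05 CPM in transplants and 56.4 to 74.6 CPM in primary tumors. Its fold was small and so was its spread, with a log2 fold change of 0.86 ± 0.14 (SE, adjusted p = 0.000146). Slc7a11, the cystine importer, differed by 1.80 ± 0.52 (SE, adjusted p = 0.0241), and Gsr, glutathione reductase, by 1.05 ± 0.26 (SE, adjusted p = 0.00791). The regulators did not pass: Nfe2l2, the gene of NRF2, was at 130.7 ± 7.32 CPM (SD, n = 4) in transplants and 144.2 ± 31.4 CPM (SD, n = 8) in primary tumors, and Keap1 at 95.2 ± 5.32 and 78.5 ± 8.94 CPM, a pair named after their values were seen.

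NRF2 binds the antioxidant response element, searched as TGACNNNGC. Windows were found for 19 of the 24 listed genes, 25 windows in all, and 9 of them (36%) held the element, against 12.4% of all windows. It was found for Txnrd1, G6pdx and Pgd, which were called, and for Gclm, Gsta3, Me1, Nfe2l2, Prdx1 and Srxn1, which were not. Whether the element goes with the difference between the groups was not tested. Below are the promoters of Txnrd1 and G6pdx, whose groups did not overlap, printed as above.
Txnrd1 (chr10:82859056-82859205, plus strand): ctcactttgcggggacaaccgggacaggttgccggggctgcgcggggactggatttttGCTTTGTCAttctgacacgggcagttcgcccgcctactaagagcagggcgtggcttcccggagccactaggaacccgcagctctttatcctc
G6pdx (chrX:74428881-74429030, minus strand): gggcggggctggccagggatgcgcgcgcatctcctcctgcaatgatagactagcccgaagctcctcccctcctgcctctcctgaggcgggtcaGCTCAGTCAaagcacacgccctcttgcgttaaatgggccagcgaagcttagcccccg
In both, the capitals read the element on the opposite strand, with the first base 92 bases before the start of Txnrd1 and 57 bases before that of G6pdx. For Gbp2, Irgm2, Txnrd1 and G6pdx the gene as annotated in GENCODE begins upstream of the RefSeq start. For Gbp2 it begins inside the printed bases and just before the marked element, which thus lies within the gene as annotated there. The window of Nqo1 held no match to these letters. None of 7 tested genes of the aryl hydrocarbon receptor, which is a receptor for polycyclic hydrocarbons such as MCA, passed (median -0.05).

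Dmrta2, Sox2, Dlx1 and Stra6 were higher in transplants. Dmrta2, a transcription factor of the developing brain (chr4:109978053-109983687), was at 11.9, 16.5, 10.4 and 18.8 CPM in transplants and 0.0462 to 0.285 CPM (median 0.111) in primary tumors. It had the largest positive value among the genes named by the rule, a log2 fold change of 6.81 ± 0.72 (SE, adjusted p = 2.65e-08). Sox2, a factor of stem and neural progenitor cells, was at 21.8, 23.3, 18.6 and 64.8 CPM in transplants and 0.0259 to 6.61 CPM in primary tumors. The primary tumors differed widely among themselves, and the log2 fold change was 3.94 ± 1.07 (SE, adjusted p = 0.0170). Dlx1, a homeobox factor, was at 9.50, 15.8, 11.8 and 15.9 CPM against 0.0231 to 7.79 CPM, with a log2 fold change of 3.51 ± 1.14 (SE, adjusted p = 0.0490), and its call held in 7 of 21 alternatives. Stra6, the membrane receptor that takes up retinol (chr9:58063788-58153996), was at 283, 552, 289 and 512 CPM in transplants and 1.14 to 95.5 CPM (median 8.81) in primary tumors. Primary tumors spread widely but none reached a transplant, and the log2 fold change was 4.13 ± 0.98 (SE, adjusted p = 0.00581). It was the only 1 of 18 retinoid handling genes called higher, while Dhrs9, a retinol dehydrogenase, was lower, with a log2 fold change of -2.87 ± 0.60 (adjusted p = 0.00186).

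Hox genes record position along the body axis and the limb. Of 31 tested, 4 were higher in transplants, all from the Hoxd cluster on chromosome 2 (Hoxd3, Hoxd8, Hoxd9 and Hoxd10), and 1 was lower, Hoxc13, which was not called without any 1 of the transplants or without primary tumor 3 or 7. Hoxd8 was at 63, 63.4, 54.5 and 98 CPM in transplants and 7.33 to 32.8 CPM (median 22) in primary tumors, with a log2 fold change of 1.74 ± 0.33 (SE, adjusted p = 0.000664). Hoxd10 was at 11.2, 13.7, 9.17 and 18.4 CPM against 0.0231 to 5.81 CPM, with a log2 fold change of 3.37 ± 1.05 (SE, adjusted p = 0.0401). Neither overlapped between groups. The number of Hox genes called higher was 1 without transplant 2 or 4 and without the high-Xist primary tumors, and 2 without transplant 1 or 3 or primary tumor 2, 3, 4 or 5. Of 29 mesenchymal transcription factors 5 were lower and none higher (Snai2, Tbx15, Emx2, Sox11 and Osr1, with a list median of -0.19), and 3 were lower without transplant 1. Tbx15, a limb and skeletal muscle patterning factor, was at 44.5, 33.9, 40.3 and 41.1 CPM in transplants and 69.3 to 167 CPM in primary tumors, with a log2 fold change of -1.44 ± 0.27 (SE, adjusted p = 0.000664). Osr1, a factor of embryonic connective tissue, differed by -1.56 ± 0.32 (SE, adjusted p = 0.00150).

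Growth factor genes moved in both directions, 4 of 32 higher (Ereg, Areg, Igfbp4 and Pthlh) and 4 lower (Fgfr2, Egfr, Kitl and Vegfc), with 9 higher without primary tumor 4 and 2 lower without transplant 1, transplant 4 or primary tumor 7. Pthlh, parathyroid hormone-related protein, was at 112.6, 40, 49.7 and 192 CPM in transplants and 2.08 to 12.4 CPM (median 6.73) in primary tumors, without overlap, with a log2 fold change of 3.90 ± 0.57 (SE, adjusted p = 2.04e-05). Transplants had more RNA of 2 ligands of the epidermal growth factor receptor and less of the receptor. Ereg, epiregulin, was at 193, 43.4, 91.3 and 292 CPM against 17.2 to 51 CPM, overlapping at transplant 2, with a log2 fold change of 2.24 ± 0.39 (SE, adjusted p = 0.000239), and Areg, amphiregulin, differed by 2.11 ± 0.54 (SE, adjusted p = 0.0119). Egfr, their receptor (chr11:16752203-16918158), was at 19.5, 25.4, 26.1 and 27.8 CPM in transplants and 50.2 to 136.7 CPM (median 94.7) in primary tumors. The transplants were tightly grouped below every primary tumor, and the log2 fold change was -1.88 ± 0.31 (SE, adjusted p = 0.000146). Igfbp4, which binds insulin-like growth factors, was at 2499.96, 1894, 2569.98 and 2543 CPM in transplants against 243 to 1362 CPM, with a log2 fold change of 1.45 ± 0.32 (SE, adjusted p = 0.00340). Inhba, the activin A subunit, was 1 of 25 TGF-β and BMP genes called higher, with a log2 fold change of 1.81 ± 0.40 (SE, adjusted p = 0.00333), beside 2 lower, Tgfbr2 and Ccn2. Inhba was not called without transplant 4, and neither lower gene was called without transplant 1, 3 or 4 or in the fit on 12 libraries, while 1 was without primary tumor 3 or 5. Prl2c2, a proliferin of the prolactin family, was at 108.5, 16.7, 34.1 and 61.8 CPM in transplants and 0.751 to 6.45 CPM in primary tumors, with a log2 fold change of 4.36 ± 0.85 (SE, adjusted p = 0.000864), although its reads can be shared with near-identical Prl2c copies. The immediate early orphan receptors Nr4a1, Nr4a2 and Nr4a3 were higher, Nr4a1 by 2.75 ± 0.51 (SE, adjusted p = 0.000560), as 3 of 16 genes in their list.

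**Figure D3:**
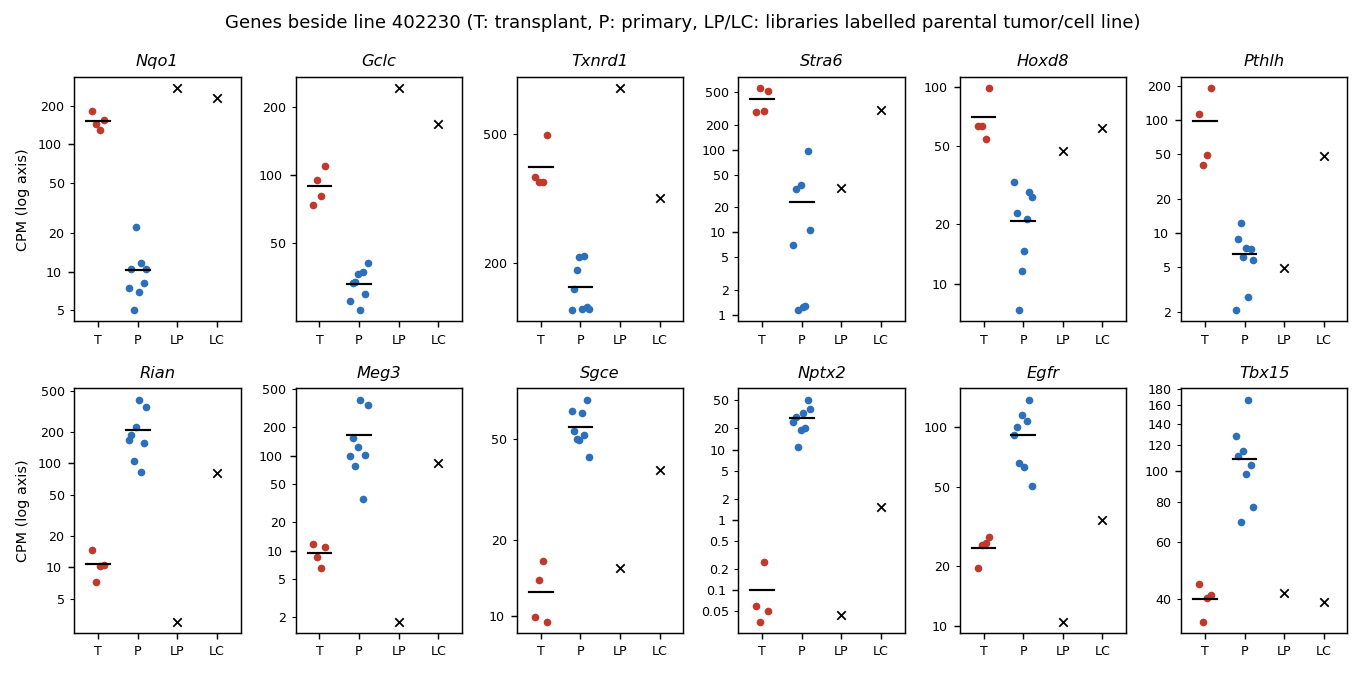
CPM (log axis) of 12 genes with 4 transplants (T) in red, 8 primary tumors (P) in blue, group means as lines, and as crosses the single libraries labelled parental tumor (LP) and cell line (LC) of the line that was transplanted. Nqo1, Gclc and Txnrd1 lie above all primary tumors in the transplants and in both crosses, and Egfr, Tbx15 and Nptx2 lie below them.

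Nptx2, Pcdh10, Stmn2 and Cldn1 were among the genes lower in transplants. Nptx2, a secreted pentraxin of excitatory synapses (chr5:144545902-144557478), was at 0.0601, 0.0357, 0.253 and 0.0507 CPM in transplants and 11 to 51.2 CPM (median 27.2) in primary tumors. It was close to absent from every transplant and plain in every primary tumor, with a log2 fold change of -8.14 ± 1.13 (SE, adjusted p = 8.46e-06), the largest negative value named by the rule. Pcdh10, a protocadherin, was at 0.220, 0.0179, 0.0461 and 0.0507 CPM against 3.08 to 14.1 CPM, with a log2 fold change of -6.41 ± 0.96 (SE, adjusted p = 2.49e-05). Stmn2, a microtubule regulator of growing axons, was at 2.45, 1.68, 2.44 and 2.51 CPM against 8.83 to 237 CPM, with a log2 fold change of -5.34 ± 1.32 (SE, adjusted p = 0.00832). Of 14 Schwann cell and axon genes 2 were lower, Stmn2 and Cdh19, with a median of -0.21, and 1 was lower without any 1 of the transplants or without primary tumor 2. Irx1, a homeobox factor, had a log2 fold change of -6.72 (adjusted p = 0.0105), Negr1, a neuronal adhesion molecule, -4.89 (adjusted p = 0.00266), Gria1, a glutamate receptor subunit, -4.68 (adjusted p = 0.00309), Robo2, an axon guidance receptor, -4.05 (adjusted p = 0.00255), and Reln, the secreted guide reelin, -3.73 (adjusted p = 0.00581). Cldn1, a tight junction claudin, was at 1.52, 3.18, 3.09 and 1.72 CPM in transplants and 9.48 to 122.1 CPM in primary tumors, with a log2 fold change of -4.22 ± 0.64 (SE, adjusted p = 2.97e-05).

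Imprinted genes, which are expressed from 1 parental copy, included several that were lower. In the Dlk1-Dio3 region of chromosome 12, 5 of 6 genes were lower (Dlk1, Meg3, Rtl1, Rian and Mirg) and Dio3, a deiodinase at its far end, was higher, with a median of -4.13. Rian, a maternally expressed noncoding RNA (chr12:109603940-109661716), was at 14.9, 7.29, 10.4 and 10.7 CPM in transplants and 83.2 to 409 CPM (median 177) in primary tumors. The highest transplant was several times below the lowest primary tumor, and the log2 fold change was -4.28 ± 0.57 (SE, adjusted p = 3.91e-06). Meg3, its neighbor, was at 11.6, 8.56, 6.61 and 11 CPM against 34.7 to 388 CPM, with a log2 fold change of -4.12 ± 0.79 (SE, adjusted p = 0.000723). Dlk1, the paternally expressed membrane protein, was at 1.78, 45.8, 4.79 and 9.36 CPM in transplants and 24.5 to 2490.3 CPM in primary tumors. It overlapped, because transplant 2 lay above the lowest primary tumor, and its log2 fold change was -5.29 ± 1.26 (SE, adjusted p = 0.00610). Dio3 was at 20.1, 1.68, 6.71 and 5.60 CPM against 0.234 to 4.26 CPM, with a log2 fold change of 2.88 ± 0.88 (SE, adjusted p = 0.0352), and its call held in 8 of 21 alternatives.

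Elsewhere 6 of 23 imprinted genes were lower (Igf2r, Cdkn1c, Ndn, Magel2, Peg10 and Sgce) and none higher, with a median of -0.30. Without transplant 1 or transplant 3, 3 of them were called. Sgce and Peg10 are a neighboring, paternally expressed pair on chromosome 6. Sgce, a sarcoglycan (chr6:4674350-4747207), was at 9.94, 13.9, 16.6 and 9.53 CPM in transplants and 42.4 to 71.4 CPM (median 52.9) in primary tumors, with a log2 fold change of -2.16 ± 0.26 (SE, adjusted p = 4.42e-07). Peg10, a gene of retrotransposon origin, was at 3.89, 12.2, 7.42 and 6.62 CPM against 37.6 to 119.7 CPM, with a log2 fold change of -3.30 ± 0.64 (SE, adjusted p = 0.000812). Both were separate in every library. Ndn, necdin, on chromosome 7, differed by -3.50 ± 0.79 (SE, adjusted p = 0.00354).

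Matrix genes leaned lower in transplants, with few calls. Of 22 collagen chains 3 were lower (Col4a5, Col8a1 and Col15a1) and 1 higher (Col12a1), with a median of -0.68, and of 28 matrix glycoproteins, elastic fiber proteins and proteoglycans 4 were lower (Fn1, Efemp1, Bgn and Loxl1), with a median of -0.77. Col1a1 was at 1758, 3249, 3769.97 and 3021 CPM in transplants and 1724 to 9948 CPM in primary tumors, a difference that did not pass (log2 fold change -0.94 (adjusted p = 0.436)). Efemp1, a fibulin, was at 21.8, 54.3, 32.2 and 25.2 CPM against 132.4 to 572 CPM, without overlap, with a log2 fold change of -2.84 ± 0.57 (SE, adjusted p = 0.00119). Bgn, biglycan, was at 784, 2086, 1669 and 1259 CPM in transplants and 2229 to 3844 CPM in primary tumors, with a log2 fold change of -1.08 ± 0.32 (SE, adjusted p = 0.0284). Col12a1, a fibril-associated collagen, went the other way at 164, 157, 210.1 and 285 CPM against 13.2 to 107.4 CPM, with a log2 fold change of 2.09 ± 0.63 (SE, adjusted p = 0.0319). Lower glycoprotein calls fell to 1 without transplant 1, transplant 3 or primary tumor 2. They also fell to 1 with the high-Xist primary tumors left out, where 1 gene of the list was called higher. They fell to 2 without transplant 4 or primary tumor 1 or 5 and with muscle content as a covariate. Lower collagen calls fell to 1 without transplant 1 or transplant 3, and Col12a1 was not called without transplant 1, 3 or 4, primary tumor 1, 2, 5, 6 or 8 or the high-Xist primary tumors. Tagln, a smooth muscle actin-binding protein, was at 59.2, 20.7, 29.7 and 25.6 CPM against 61.1 to 458 CPM, with a log2 fold change of -2.70 ± 0.70 (SE, adjusted p = 0.0125), and with Cnn1 it made 2 lower of 16 contractile genes, of which 1 was lower without any 1 of the transplants or without primary tumor 3. Mmp13, a collagenase, was higher at 14, 61.7, 112.996 and 26 CPM against 3.30 to 14.7 CPM, with a log2 fold change of 2.88 ± 0.55 (SE, adjusted p = 0.000743).

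Proliferation genes and p53 targets gave few calls. Of 22 cell cycle genes 1 was higher, Rrm2, a ribonucleotide reductase subunit, with a log2 fold change of 1.06 ± 0.22 (SE, adjusted p = 0.00185), with a list median of 0.08. Of 18 p53 targets 1 was lower, Gdf15, with a log2 fold change of -3.55 ± 0.56 (SE, adjusted p = 6.18e-05), and the list median was 0.03. With muscle content as a covariate 4 p53 targets were lower, and 2 were without primary tumor 2, 4 or 6. None of 18 cholesterol and fatty acid synthesis genes passed (median -0.25), and 2 of 18 hypoxia and glycolysis genes were higher, Hk2 and Pfkp, with 0 called without transplant 1, 3 or 4, 4 without primary tumor 4 and 1 without primary tumor 1, 2, 5, 6, 7 or 8. Of 29 Wnt pathway genes 2 were higher, Sfrp1 and Wif1, which both bind Wnt ligands outside the cell, and neither was called without transplant 3 or without the high-Xist primary tumors.

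All 16 skeletal muscle fiber genes had positive values (median 1.70, and 0.91 without transplant 1) and none passed. The mean log2 CPM of the list was 9.40, 7.70, 6.89 and 7.89 in transplants 1 to 4 and ran from 2.02 to 8.06 in primary tumors. With this mean as a covariate 1399 genes were called, 1203 of them also called without it. Genes of regenerating fibers were higher in 4 of 13 (Mymx, Myh3, Myh8 and Tnnt2, with a median of 3.46), in 1 without transplant 1, transplant 3 or the high-Xist primary tumors, and in 2 without primary tumor 3, 6 or 7. Myh8, a perinatal myosin, was at 17.4, 11.8, 6.59 and 2.31 CPM in transplants and 0 to 1.19 CPM in primary tumors, with a log2 fold change of 4.15 ± 1.28 (SE, adjusted p = 0.0368). Mymx, a micropeptide that fuses myoblasts, was at 2.93, 0.357, 2.49 and 0.0761 CPM against 0 to 0.0713 CPM. None of 9 adipocyte genes passed (median 2.6), and 1 of 6 red blood cell genes, 2 of 9 mast cell and eosinophil genes, both high in transplant 3, and 1 of 16 endothelial and pericyte genes, Cspg4, did. Without transplant 3 none of the red blood cell, mast cell and eosinophil, and endothelial and pericyte genes was called, without transplant 1 Cspg4 was not called either, and without primary tumor 4 there were 4 red blood cell calls. The median of the mast cell and eosinophil list was -0.42, and -1.43 without transplant 3. The part of these tissues in the tumor gene differences was tested only through the muscle covariate.

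Each of 2 single libraries of the transplanted line was set beside these groups, with no replicate. They went against their labels. The library labelled parental tumor held almost no leukocyte or endothelial RNA, with Ptprc at 0.112 CPM, C1qa at 0.0670 CPM, Pecam1 at 0.112 CPM and Ctss at 0, while the library labelled cell line had Ptprc at 81.9, C1qa at 254, Pecam1 at 104.4 and Ctss at 288 CPM. Neither entered a comparison. The genes counted next were picked from tumors grown from this same line, so their side in these libraries is no separate support. The share of all tested genes on each side is not given here. All 10 called NRF2 targets were above the primary median in both libraries, with Nqo1 at 274 CPM in the library labelled parental tumor and 229 CPM in that labelled cell line. The 4 called Hoxd genes were likewise above in both. Of the 16 interferon-γ-induced genes 15 were below the primary median in both, with Gbp2 at 23.4 and 46.2 CPM, and Ido1 was above. Of the 15 genes with the largest negative values 12 were below in both, among them Nptx2 at 0.0447 and 1.54 CPM, and of the 15 largest positive 9 were above and 2, the muscle genes Sln and Myh8, were below. Rian was at 3.02 CPM in the first and 79.9 CPM in the second.

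The difference between transplants and primary tumors was then measured in other mice, 4 transplants and 8 primary tumors that received isotype antibody and 0 Gy. Those transplants came from the same cell line, so traits of that line recur there. The comparison is therefore no independent repeat of a difference between tumor models. There 750 genes (3.88%) were higher and 1238 (6.41%) lower. Both comparisons called 1010 genes, all with the same sign, which is 71.1% of the anti-PD-1 calls and 50.8% of the isotype calls. Of the 1421 anti-PD-1 calls 1420 (99.9%) had the same sign under isotype, against 80.4% of all genes, most of which differed less. Across the 19327 genes, which are not independent replicates, Pearson's r between the fold changes was 0.850 and Spearman's rho 0.786. The test of the difference itself, the interaction of tumor model with antibody, called 0 genes by edgeR. At an unadjusted p under 0.05 it had 147 genes (0.761%), and DESeq2 called 1 and limma voom 0. That share is far under the 0.05 that would be met on average if no gene differed. Genes are not independent, so the share alone cannot tell whether the test was conservative, which was not tested. The 0 calls of the interaction do not show that the difference was the same under both antibodies. The median SE of the interaction was 0.44 on the log2 scale, which limits how small a difference could be detected with these numbers of tumors.

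By gene, the isotype group gave Nqo1 at 159.99 ± 27.6 CPM (SD, n = 4) in transplants and 9.55 ± 5.14 CPM (SD, n = 8) in primary tumors. Its log2 fold change there was 4.07, beside 3.87 under anti-PD-1. Of the interferon-γ-induced genes 10 of 16 were called under isotype, with a median of 1.52, and the type I list had 0 of 22 and a median of -0.53. Gbp2 was at 225 ± 142.1 CPM (SD, n = 4) in transplants and 79.1 ± 40.5 CPM (SD, n = 8) in primary tumors under isotype and at 429.7 ± 110.8 CPM (SD, n = 4) against 132.04 ± 58.9 CPM (SD, n = 8) under anti-PD-1. Ifng was at 1.09 ± 0.763 CPM (SD, n = 4) in transplants and 0.151 ± 0.157 CPM (SD, n = 8) in primary tumors under isotype, with an interaction of 0.38 on the log2 scale (unadjusted p = 0.762). Gzmb was at 44 ± 27.4 CPM (SD, n = 4) in transplants and 22.9 ± 37.9 CPM (SD, n = 8) in primary tumors under isotype and at 97 ± 50.7 CPM (SD, n = 4) against 14.8 ± 8.11 CPM (SD, n = 8) under anti-PD-1. Its interaction of 1.77 was the larger of these, at an unadjusted p of 0.0638. NRF2 targets called under isotype were also 10 of 23, with a median of 0.64. After anti-PD-1 and 20 Gy, in other mice, transplants and primary tumors differed in 0 of these 23 genes, with a median of 0.20. There 3 of the 16 interferon-γ-induced genes were higher (median 0.91), and 3 of 6 Dlk1-Dio3 genes were lower (median -1.84). The cause of these lower counts was not tested. The corresponding interaction with dose, set against tumors given anti-PD-1 and 20 Gy, called 0 genes by edgeR, with 920 (4.76%) at an unadjusted p under 0.05, 3 by DESeq2 and 0 by limma voom, the smallest adjusted p of edgeR being 0.295.

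**Figure D4:**
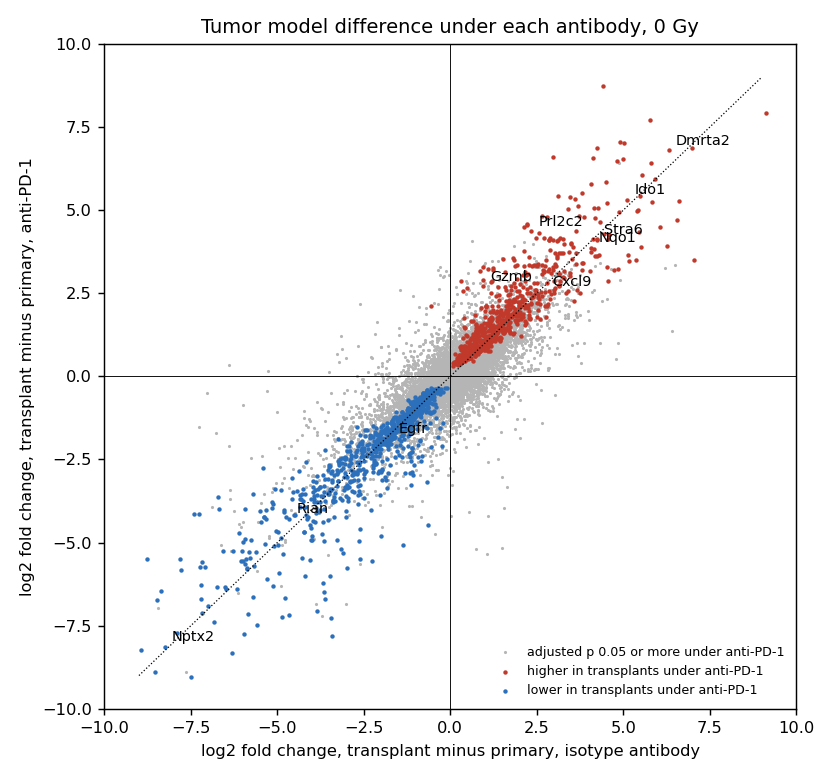
Log2 fold change, transplant minus primary at 0 Gy, of each of 19327 genes under isotype antibody (x) and under anti-PD-1 (y). The mice were separate, the transplanted cell line was the same, and the dotted line marks equal values. Genes called under anti-PD-1 are red (656 higher) or blue (765 lower), and 1420 of the 1421 have the same sign on both axes.

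Transplants lay closer to their group mean than primary tumors did. The Euclidean distance of a library from the mean of its group over all tested genes in log2 CPM, scaled for group size, was 82.2 ± 3.85 (SD, n = 4) in transplants and 96.9 ± 13.2 (SD, n = 8) in primary tumors, a difference of -14.8 (exact permutation test of the distances, two-sided, p = 0.0485). The p was 0.0788 to 0.158 without any 1 of the 4 transplants or without primary tumor 4, 6 or 7. Genes at 1 CPM or more numbered 14035 ± 251 (SD, n = 4) and 13909 ± 160 (SD, n = 8), a difference of 125.9 within the spread (exact permutation test, two-sided, p = 0.299).

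The median level of expressed genes was then taken for each of 20 chromosomes. No chromosome differed between the models after adjustment, with 5 at an unadjusted p under 0.05, the smallest adjusted p at 0.0808 (exact permutation tests, two-sided) and no difference above 0.115 on the log2 scale. With means in place of medians 7 passed. Single primary tumors stood out instead. Primary tumor 6 was raised by 0.467 on chromosome 13, 0.409 on chromosome 3 and 0.349 on chromosome 8. Primary tumor 7 was raised by 0.217 on chromosome 3 and 0.210 on chromosome 15. Primary tumor 2 was raised by 0.235 on chromosome 15 and lay at -0.216 on chromosome 13. In the 4 transplants no chromosome moved by more than 0.126.

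**Figure D5:**
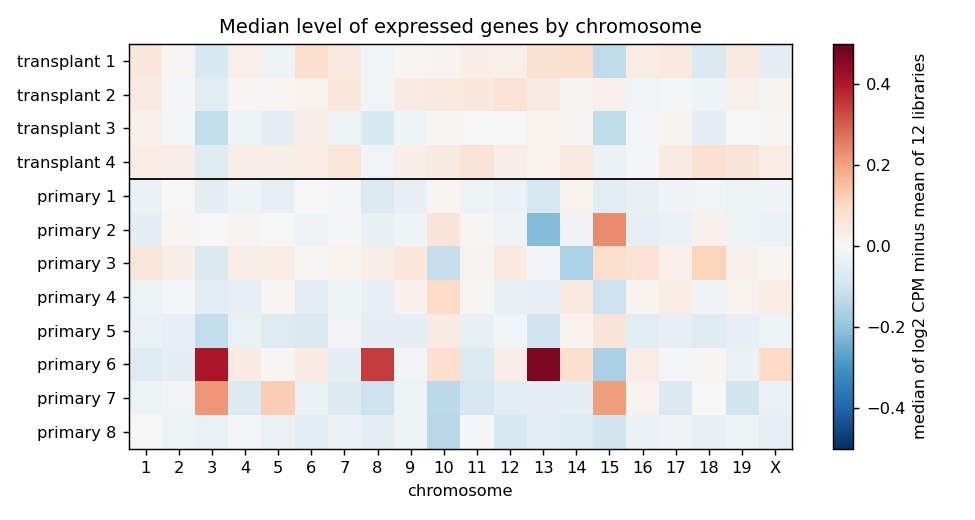
Median over expressed genes of log2 CPM minus the mean of the 12 libraries, by chromosome (columns) and library (rows), with transplants above the line and red for higher. Primary tumor 6 is raised on chromosomes 3, 8 and 13, up to 0.467, while the transplants stay within 0.126.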

How the data were processed

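Whole-tumor RNA was made into oligo-dT, stranded libraries by the study and sequenced. According to its labels and methods, Trimmomatic 0.36 served for trimming, STAR for alignment to mouse mm10 with GENCODE M17, and the authors deposited whole-number read counts per gene from the HTSeq counting built into the aligner; the strand setting of the counting is not given in the sources used here. Antisense and overlapping genes may therefore share reads.

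From these counts, genes were filtered with filterByExpr and fitted on all 48 tumor libraries (8 groups, TMM factors) by edgeR 4.0.16's robust quasi-likelihood test in R 4.3.3, with Benjamini-Hochberg adjustment over 19327 of 37469 identifiers. CPM are TMM-scaled, and log2 CPM have a prior count of 2. Symbols and coordinates came from GENCODE M21 on GRCm38 (37408 identifiers matched). Nothing in the labels says that libraries of 1 group came from separate cultures, so p-values measure the spread between these tumors. Within groups, 34 pairs of libraries differed by more than sampling noise (lowest chi-square per degree of freedom 61.0). The scripts were tested on counts simulated for this comparison, with 100 genes changed by 1 and 100 by 2 on the log2 scale. Of these, 38% and 60% were recovered, and 3 of 101 calls were false. A gene that did not pass, or a list without calls, can therefore still differ.

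The members and gene lists were chosen with earlier results of these data known, and no set test was run. Named were, among called genes without overlap and with an average log2 CPM of at least 2, the 15 largest changes in each direction, up to 2 genes per list by p, a short list of immune, stromal and sex-linked genes, and all called list members, of which 1 is not reported here. Of 501 genes that met the first criteria 220 were higher. Of the 44 lists, the prolactin family had 1 of 2 tested genes higher and the sex-linked list 0 of 5, and 1 of 11 epithelial genes was lower. Alternatives were DESeq2 1.42.0, limma 3.58.1 with voom, other scalings and filters, the 12 libraries alone, a muscle covariate and leaving out each library. The study's methods used DESeq2. The libraries given 20 Gy entered the fit. Those given 20 Gy and anti-PD-1 also entered the dose interaction and a comparison of their own, of which only counts and medians of some lists are given.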

Additional observations from a re-analysis of the deposited data

Results flagged for a closer look

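Among 368 sets of 4 or 8 values tested for a library far from the others of its group (named genes, list means and chromosome levels), 21 values stood apart by Dixon's criterion, or 5.71%, where chance gives about 1 in 20. Values are log2 CPM unless said otherwise.

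Among transplants, the highest value stood apart for Mylpf, a fast muscle myosin light chain, at 10.5, for Xist at 6.23, and for the list means of contractile genes at 5.86 and of Schwann cell and axon genes at 2.16. The lowest stood apart for Stmn2 at 0.79 and for the Y-linked Uty at 3.56. Among primary tumors, the highest stood apart for Kcnk12, a potassium channel, at 2.12, Il1rn at 5.19 and the centromere protein Cenpa at 7.17, and for the list means of neutrophil genes at 3.31, inflammatory cytokines at 4.07 and cell cycle genes at 6.96. The lowest stood apart for Apoe, an apolipoprotein of macrophages, at 8.2, for Mylpf at 2.08 and for Lipe, an adipocyte lipase, at 3.22.

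For the median level of expressed genes by chromosome, relative to the mean of the 12 libraries, primary tumors had 1 high library on chromosome 13 at 0.467, on chromosome 8 at 0.349 and on chromosome 18 at 0.112. Transplants had 1 high library on chromosome 16 at 0.0365, and 1 low library on chromosome 7 at -0.0218 and on chromosome 8 at -0.0750.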

How the results depend on the processing

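The sign of every called gene named here was kept under all 21 alternatives of the fit, but 89 of the 150 lost their call under at least 1. The count of 1421 calls ranged from 627 to 1516 when single libraries were left out, with 257 to 754 higher and 328 to 875 lower genes. The lowest counts came without transplant 1 or 3. Leaving out transplant 2 or 4 removed as many samples and gave 1236 and 1013 calls. Of the 1421 calls, 612 were shared without transplant 1 and 635 without transplant 3. DESeq2 called 1263 genes lower, and leaving out the 3 primary tumors with high Xist, chosen after the data were seen, gave 416 higher. The interactions had 0 calls by edgeR and, by DESeq2, 1 for antibody and 3 for dose. Distances from the group mean differed by -17.1 to -10.9 without single libraries. For chromosome levels, means in place of medians gave 7 differences where medians gave 0. The cause of these changes was not tested.

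Among genes that were not called, signs turned in the sex-linked genes when the high-Xist primary tumors were left out, to 6.05 for Xist, -0.33 for Uty, -0.34 for Ddx3y, -0.35 for Eif2s3y and -0.43 for Kdm5d, and in single omissions for Trp53 (-0.041 to 0.30) and Cd4 (-0.17 to 0.64), both negative without transplant 3. No paired analysis was possible because the groups share no replicate numbers in the labels. At 37.7 counts per CPM, counting error is small for most named genes, while Ifng, Nptx2 and others near 0 in 1 group rest on few counts there.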
